A study of Mus musculus with 12 samples.

Results

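The genes that build ribosomes were followed in hearts of wild-type and STING-/- mice given cisplatin (CDDP). Members were the genes that the annotation deposited with the expression table assigns to the KEGG pathway of eukaryotic ribosome biogenesis and does not also assign to the spliceosome. The rule itself uses no expression value, although the pathway was picked with earlier results of these data known. The rule gave 144 of the 55885 genes in the table, after 12 of the 156 genes in the pathway had been left out for their spliceosome entry.

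Cardiac tissue came from male mice, 8 weeks old by the study's methods, with 3 hearts in each of 4 groups of 6 mice. The Saline and CDDP groups were wild-type C57BL/6J mice, and the STING-/- and STING-/-+CDDP groups were mice of the same background that lack STING in all cells, labelled with the older gene name as Tmem173-/-. The CDDP and STING-/-+CDDP mice were injected into the peritoneum with cisplatin, 6 mg/kg each time, on days 1, 8 and 15, and the hearts of all groups were collected on day 22. The hearts without cisplatin are called untreated in the labels. The study's methods name the wild-type ones as a saline group and state no injection for the STING-/- group. The wild-type and knockout mice came from different suppliers, so genotype and source cannot be told apart. The labels do not say whether each library held the RNA of a single mouse, so the p-values measure the spread between these libraries, called hearts here.

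A ribosome is assembled in the nucleolus, where RNA polymerase I makes a long precursor of the ribosomal RNAs. Small nucleolar ribonucleoproteins of the box C/D and box H/ACA types modify this precursor, and a large particle named the small subunit processome folds and cuts it. GTPases, AAA ATPases and export factors then finish both subunits and carry them to the cytoplasm. In the heart, ribosome production is known to rise when cardiomyocytes grow.

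Expression was deposited as TPM, a level of transcripts corrected for gene length in which every heart is scaled to the same sum. The number of reads behind a TPM is not kept, so sequencing depth could not be given per heart. The number of genes with a TPM above 0 ran from 19680 to 21024 over the hearts. A gene that reached 1 TPM in 3 or more hearts was tested, with limma on log2(TPM + 1), and p-values were adjusted over all 13815 genes tested. A gene is called where this adjusted p is under 0.05, and each log2 fold change below is a difference on that scale, which understates the change of genes with a low TPM.

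Of the 144 members, 72 passed this filter, 71 of the 78 protein-coding members and 1 of the 60 pseudogenes. No tested member reached 1 TPM in only 1 group of hearts. Among the 72 members not tested, 50 were at 0 in every heart and 22 were above 0, with the highest value, 1.37 TPM, for the pseudogene Fbl-ps2 in a STING-/- heart. The untested protein-coding members included the export factors Nxf2, Nxf3 and Nxf7, Fbll1, a relative of fibrillarin, and Utp14b. Over the tested members, the mean level across the 12 hearts ran from 0.843 to 95.6 TPM with a median of 9.04 TPM. Csnk2b, the regulatory subunit of casein kinase 2, had the highest level, and Mdn1, Pop1 and Gm5693 were among the lowest. GENCODE places exon bases of 30 tested members under another gene, and 27 tested protein-coding members have a pseudogene among the members. The strand used in counting is not stated, so reads of such overlapping genes or copies cannot be told apart. This limit also covers the members called higher in CDDP against Saline below. Of these 15, 10 share exon bases with another gene and 6 have a pseudogene among the members.

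The label of the tissue was checked with marker genes. Cardiomyocyte genes were high in all 12 hearts, with a summed level of the 7 markers between 21586 and 44551 TPM and Myl2 as the most abundant of them in most hearts. One of these markers, the actin gene Actc1, was lower in the CDDP hearts (log2 fold change -3.55, adjusted p = 0.00181), and another, the troponin gene Tnnt2, was higher (0.56, adjusted p = 0.0137). The summed level of 4 atrial markers, led by Nppa, differed between hearts of the same group, with 310, 38939 and 339 TPM in the Saline hearts and 3793, 854 and 14621 TPM in the CDDP hearts. It was 2994, 12835 and 8861 TPM in the STING-/- hearts, and 9025, 902 and 331 TPM in the STING-/-+CDDP hearts. The second Saline heart, the third CDDP heart and the first STING-/-+CDDP heart thus held far more atrial RNA than the others of their groups. The first 2 of these were the highest of the 12 hearts and were left out together in an alternative below. All other hearts stayed in. Neutrophil markers summed to 1086 TPM in the first CDDP heart and to at most 87.8 TPM in each other heart. Markers of erythroid cells (5 of 5 genes), endothelium (4 of 5) and macrophages (3 of 5) were called lower in CDDP against Saline, and none of these lists had a gene called between STING-/-+CDDP and CDDP. For macrophages, with Csf1r or Cd163 as the most abundant gene in each Saline heart, the sum was 92.2, 142 and 96.8 TPM in the Saline hearts and 29.4, 59.0 and 51.5 TPM in the CDDP hearts. Endothelial markers summed to 635, 485 and 578 TPM in the Saline hearts and 340, 377 and 420 TPM in the CDDP hearts. Erythroid genes, led by Hbb-bs, summed to 6815, 4146 and 9317 TPM in the Saline hearts and to 1271, 141 and 41.9 TPM in the CDDP hearts, where Alas2 was at 0 in the third. The STING-/- hearts, without cisplatin, were also below every Saline heart, with erythroid sums of 1266, 1465 and 264 TPM. In the STING-/-+CDDP hearts the sums were 101, 81.9 and 311 TPM. Of the other lists, 2 of 5 fibroblast genes, 1 of 3 mural genes, and the 1 tested lymphocyte and 1 tested proliferation gene were called lower, and 0 of 3 tested adipocyte genes, 0 of 4 atrial and 0 of 4 neutrophil genes were called. The part of these shifts in the values of the ribosome biogenesis genes was not tested. In whole tissue, fewer cells of a type and less RNA per cell cannot be told apart.

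Sting1 was above 0 in the knockout hearts as well, with 3.82, 5.96 and 2.87 TPM in the STING-/- hearts and 4.26, 4.67 and 3.37 TPM in the STING-/-+CDDP hearts. The Saline hearts held 12.3, 6.59 and 6.50 TPM, and the CDDP hearts 22.1, 5.62 and 8.81 TPM. Every STING-/- heart lay below every Saline heart, and every STING-/-+CDDP heart below every CDDP heart, but the second STING-/- heart, at 5.96 TPM, was above the second CDDP heart. The table holds 1 value per gene, so it does not show whether the reads in the knockout hearts lie outside the mutated part of the gene, and these levels do not check the genotype.

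The first comparison asked how cisplatin changed these genes in wild-type hearts. In CDDP against Saline, 15 of the 72 tested members were called higher, or 20.8%, where 8.52% of all tested genes were called higher. The risers were the processome scaffold Mphosph10, 4 subunits of the UtpA complex (Heatr1, Utp4, Utp15 and Wdr43), the small nucleolar ribonucleoprotein subunits Nop56 and Nhp2, the large subunit factors Gnl2, Gnl3, Gtpbp4, Lsg1 and Sbds, the small subunit factors Utp14a and Riok2, and Rpp40 of RNase MRP. Only Pop7 and the pseudogene Gm5693 were called lower, 2.78% against 10.4% of all tested genes. The values of the CDDP and Saline hearts did not overlap for 26 members that were higher, 36.1% against 14.9% of all tested genes, and for 3 that were lower, 4.17% against 17.1%. The median log2 fold change of the tested members was 0.20, beside 0.00 over all tested genes, and 54 of the 72 were above 0, where 49.8% of all tested genes were. At an unadjusted p under 0.05, 26 members differed in either direction, 36.1% beside 33.9% of all tested genes. The closest calls were Utp15, called with an adjusted p of 0.0472, and Gar1, not called with an adjusted p of 0.0689. The summed level of all members was 1045 ± 106 TPM in the Saline hearts (SD, n = 3) and 1293 ± 128 TPM in the CDDP hearts.

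How many genes passed depended on single hearts, for the members and for all tested genes alike. Without the first Saline heart, 7 members were called higher (9.72%, beside 3.86% of all tested genes) and 1 lower. Without the third Saline heart there were 5 higher (6.94% beside 4.16%) and 1 lower, and without the third CDDP heart 7 higher (9.72% beside 4.84%) and 1 lower. A fit of the CDDP and Saline hearts alone called 3 higher (4.17% beside 2.36%) and 1 lower. With the 2 hearts highest in atrial RNA both left out, 5 members were higher and 0 lower, 6.94% beside 6.35% of all tested genes called higher. The median of the members was then 0.25 beside -0.01 over all. Mphosph10, Gnl2, Sbds, Nop56 and Gtpbp4 were the 5 genes called there. These 5 also passed in each of the 12 fits without 1 heart, Pop7 in 11 of them, Lsg1, Nhp2 and Gm5693 in 10, Riok2 and Wdr43 in 9, Gnl3 and Utp4 in 8, Rpp40 in 5, Heatr1 in 4, and Utp14a and Utp15 in 3.

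**Figure D1:**
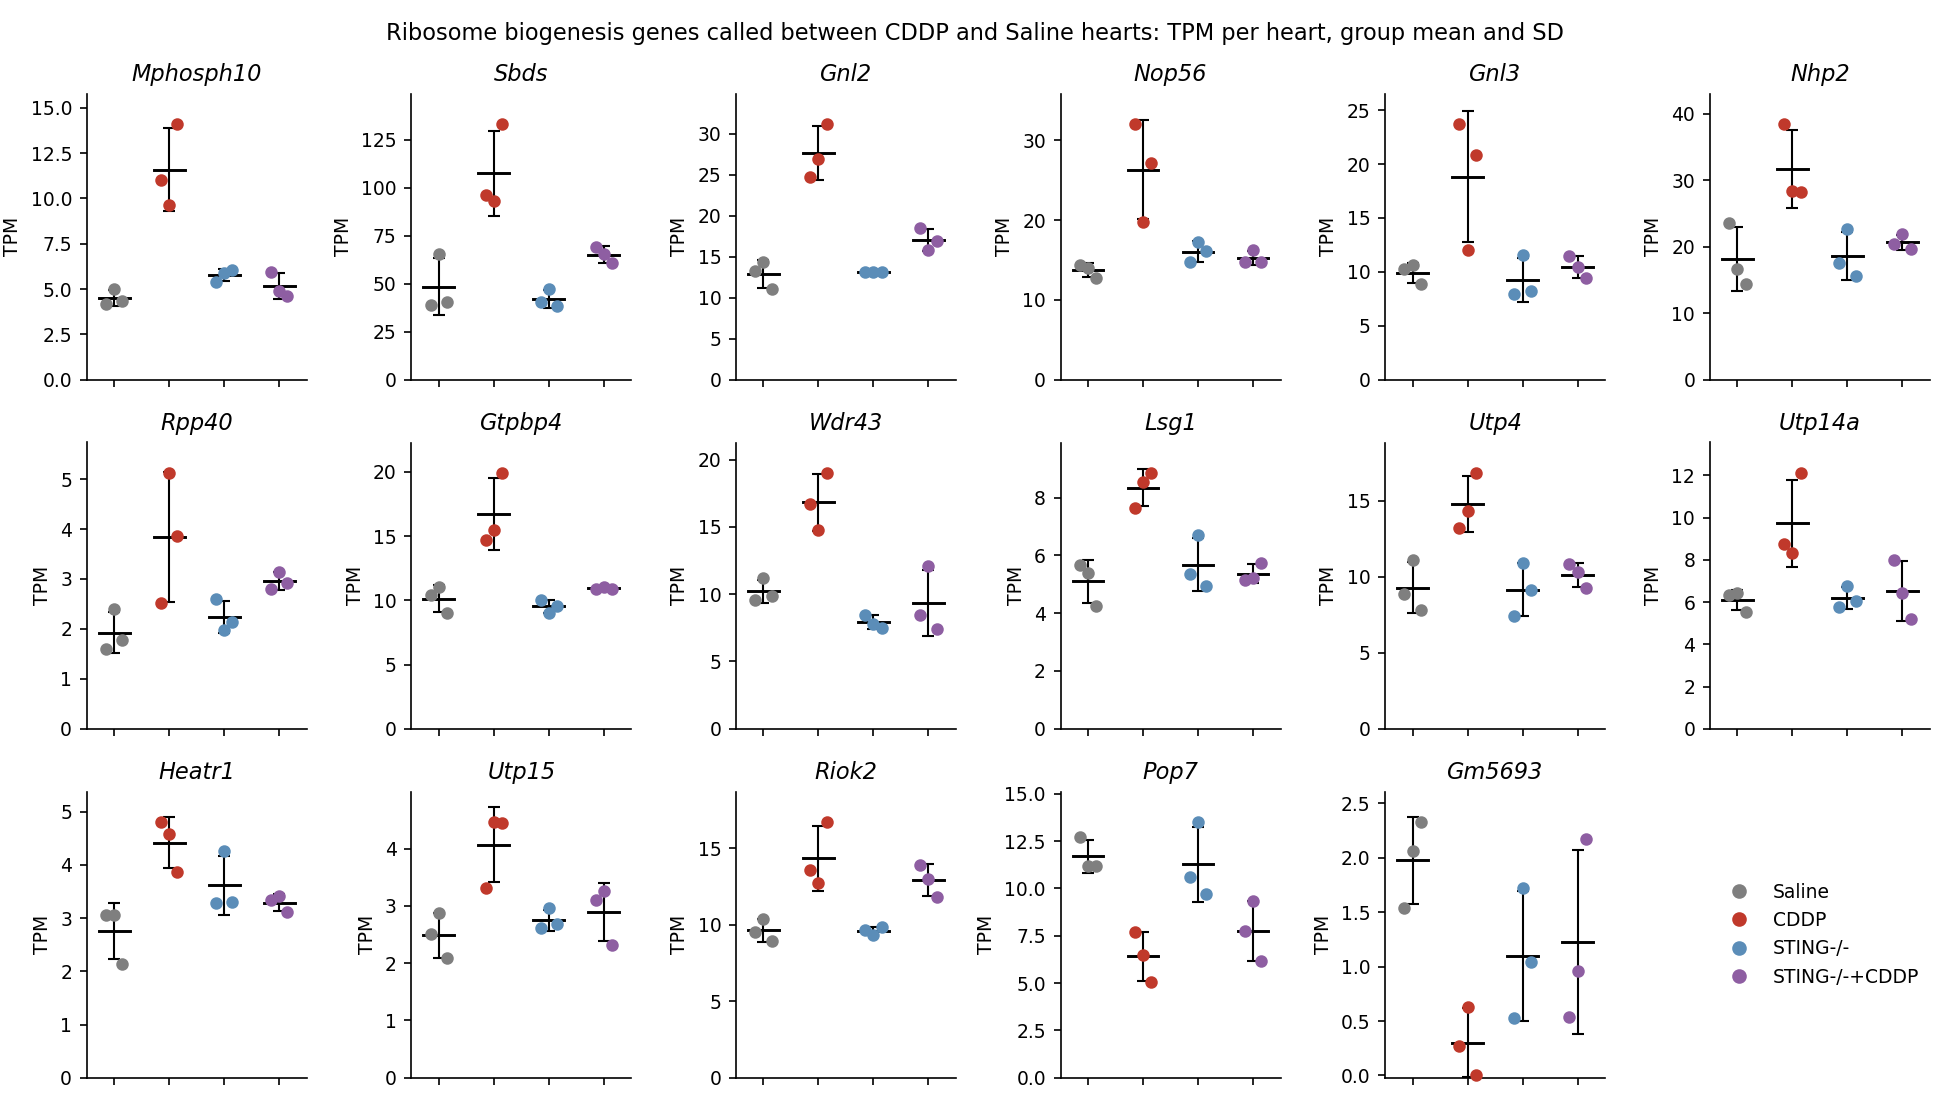
TPM of the 17 ribosome biogenesis genes called between CDDP and Saline hearts, in each of the 12 hearts (points, 3 per group, coloured by group); the horizontal bars are group means and the vertical bars the SD. The CDDP hearts lie above all Saline hearts in 15 panels and below them for Pop7 and Gm5693, which was at 0 in the third CDDP heart.

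The subunits of the small subunit processome were taken first. UtpA, also called t-UTP, is the subcomplex that binds the nascent precursor first and is known to be needed for transcription by RNA polymerase I. Of its 5 members, 4 were called higher with CDDP, beside 8.52% of all tested genes. Over both directions, 18.9% of all tested genes were called. Wdr43 had 9.56, 11.2 and 9.86 TPM in the Saline group and 16.7, 14.8 and 19.0 TPM in the CDDP hearts, without overlap (log2 fold change 0.66, standard error 0.18, adjusted p = 0.0229). Utp4 rose by 0.62 (adjusted p = 0.0299), Heatr1 by 0.54 (adjusted p = 0.0411) and Utp15 by 0.54. Wdr75 was not called, with 5.59, 8.73 and 10.6 TPM in the Saline hearts and 17.3, 10.9 and 8.68 TPM in the CDDP hearts, which overlapped (0.50, standard error 0.28, adjusted p = 0.228). The STING-/-+CDDP hearts had Wdr43 at 8.43, 12.1 and 7.44 TPM, below all CDDP hearts.

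Wdr43 was the called member with the largest rise among those whose promoter in the RefSeq table (GRCm38.p6) holds an E-box, the letters CACGTG, which proteins of the MYC family are known to bind. It is shown from 250 bases before to 30 bases after the RefSeq start, on the plus strand, chr17:71615965-71616244, 5′ to 3′, with the E-box in capitals.
Wdr43: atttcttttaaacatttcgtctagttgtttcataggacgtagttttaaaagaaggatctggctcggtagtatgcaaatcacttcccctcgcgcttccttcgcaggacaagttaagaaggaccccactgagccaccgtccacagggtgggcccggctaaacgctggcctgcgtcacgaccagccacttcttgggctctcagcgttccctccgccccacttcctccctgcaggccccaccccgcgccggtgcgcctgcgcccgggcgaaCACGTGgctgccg
The match covers bases 18 to 23 counted from the RefSeq start, inside the transcript. GENCODE starts the gene further upstream, at 71615895, so that the whole stretch shown lies inside the gene by that annotation. It is a match of letters and not a measured binding site.

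UtpB, which joins after UtpA, had no member called among 6, where 18.9% of all tested genes were called in either direction. Pwp2, one of its core subunits, had 5.02, 4.74 and 5.01 TPM in the Saline group and 4.32, 4.58 and 5.55 TPM in the CDDP hearts, which overlapped (log2 fold change -0.03, standard error 0.16). Tbl3, another of its WD40 subunits, had a log2 fold change of -0.04, and the largest of the 6 was the 0.57 of Utp18 (standard error 0.23, adjusted p = 0.110). The medians of the roles were 0.54 for UtpA and 0.00 for UtpB, and the difference between them was not tested. None of the 5 members of UtpC and casein kinase 2 was called either. Their median was 0.26, and 3 of the 5 were higher in CDDP hearts without overlap, beside 14.9% of all tested genes. These 3 were Csnk2a2 (0.39), Nol6 (0.34) and Csnk2b (0.26). Csnk2a1, a catalytic subunit of the kinase, was the only one below 0, with a log2 fold change of -0.13 and a standard error of 0.20.

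The Mpp10 complex is a further piece of the processome with 3 members here. Its scaffold gene Mphosph10 (ENSMUSG00000030521, chromosome 7 of GRCm38, 64376527 to 64392268, minus strand) had the largest rise of all tested members. Its level was 4.20, 5.0 and 4.33 TPM in the Saline hearts and 11, 9.64 and 14.1 TPM in the CDDP hearts. All CDDP hearts were thus far above the Saline hearts (1.18, standard error 0.16, adjusted p = 0.00126). The STING-/- hearts held 5.38, 5.87 and 6.04 TPM and the STING-/-+CDDP hearts 5.97, 4.90 and 4.64 TPM, so that the groups of knockout hearts overlapped. Its partners Imp3 and Imp4 were not called, with log2 fold changes of -0.09 and 0.26 whose standard errors were 0.26 and 0.30.

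Among the other small subunit factors, 2 of 12 were called, a share near the 18.9% of all tested genes called in either direction. Riok2, a kinase of late precursors of the small subunit, rose by 0.52 (standard error 0.14, adjusted p = 0.0243), from 9.51, 10.4 and 8.96 TPM in the Saline hearts to 13.6, 12.7 and 16.7 TPM in the CDDP hearts. Utp14a, which works with a helicase of the processome, rose by 0.58 (adjusted p = 0.0446). Bms1, a GTPase of the processome, Nat10, which acetylates ribosomal RNA, Nob1, the nuclease of the last cut, Riok1 and Tcof1 had log2 fold changes between -0.09 and 0.23 and were not called.

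Box C/D particles guide methylation of ribosomal RNA, with Nop56 and Nop58 as their paired scaffold and fibrillarin (Fbl) as the methyltransferase. Nop56 was called higher, at 14.4, 14 and 12.7 TPM in the Saline group and 32.0, 19.7 and 27.2 TPM in the CDDP hearts (log2 fold change 0.87, standard error 0.17, adjusted p = 0.00573). Nop58 was at 26.8, 9.52 and 21.5 TPM in the CDDP hearts against 12.3, 14.2 and 9.93 TPM in the Saline hearts, and Fbl at 33.7, 18.4 and 30.7 TPM against 27.1, 24.7 and 19.5 TPM. For both, the second CDDP heart was below every Saline heart, and neither was called (0.52 with a standard error of 0.35, and 0.18 with 0.25). The exons of Nop56 hold small nucleolar RNA genes in GENCODE and overlap Idh3b on the other strand, and 5 pseudogenes share its KEGG entry.

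Box H/ACA particles guide pseudouridine formation. Nhp2, which binds their RNA, rose by 0.78 (standard error 0.20, adjusted p = 0.0203), from 23.6, 16.6 and 14.4 TPM to 38.4, 28.4 and 28.2 TPM. Gar1, just outside the threshold, was higher in all 3 CDDP hearts, with 26.7, 19.0 and 24.9 TPM against 14.7, 15.3 and 14.2 TPM (0.63, standard error 0.22). The catalytic subunit Dkc1 had 6.66, 8.76 and 5.06 TPM in the Saline hearts and 6.83, 3.65 and 6.00 TPM in the CDDP hearts, with overlap (-0.28, standard error 0.22). Nop10, the smallest subunit, had a log2 fold change of 0.05 with a standard error of 0.12.

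Factors of the large subunit included 5 of the 15 risers among their 12 tested members, beside 8.52% of all tested genes called higher. Sbds (ENSMUSG00000025337, chromosome 5 of GRCm38, 130245731 to 130255530, minus strand), the Shwachman-Diamond syndrome gene, works with Efl1 to remove Eif6 from the new large subunit. It was at 39.1, 65.6 and 40.5 TPM in the Saline group and 96.3, 93.1 and 133 TPM in the CDDP hearts (1.16, standard error 0.20, adjusted p = 0.00386). The second Saline heart, rich in atrial RNA, was the highest of its group, and without it the log2 fold change was 1.39. Efl1 and Eif6 were higher by 0.35 and 0.50 and were not called (adjusted p = 0.174 and 0.0813). Gnl2 (ENSMUSG00000028869, chromosome 4, 125016585 to 125055380, plus strand), a nucleolar GTPase of the large subunit precursor, had 13.3, 14.4 and 11.1 TPM in the Saline hearts and 24.7, 27.0 and 31.2 TPM in the CDDP hearts. It thus rose by 1.04 without overlap (standard error 0.14, adjusted p = 0.00112). Part of its exon sequence lies opposite Dnali1.

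The nucleolar GTPase Gnl3, also known as nucleostemin, had 23.7, 12 and 20.8 TPM in the CDDP hearts against 10.3, 10.6 and 8.85 TPM (log2 fold change 0.82, standard error 0.23, adjusted p = 0.0294), again with the second CDDP heart lowest. Gtpbp4, another nucleolar GTPase, rose by 0.66 (adjusted p = 0.0103), and Lsg1, a cytoplasmic GTPase that releases the export adaptor Nmd3, rose by 0.62 (adjusted p = 0.0185). Nmd3 itself had a log2 fold change of -0.01 and the AAA ATPase Mdn1 one of -0.24, with standard errors of 0.22 and 0.19, and neither was called.

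None of the 6 tested genes of nuclear export was called, among them the GTPase Ran (0.12, standard error 0.15), the exportin Xpo1 (0.11, standard error 0.26) and the messenger RNA export factor Nxf1 (0.18, standard error 0.20). RNase MRP and RNase P share most of their protein subunits, and 2 of their 9 tested members were called, in opposite directions and at a share near the same 18.9%. Rpp40 rose from 1.6, 2.39 and 1.78 TPM to 2.52, 5.12 and 3.86 TPM (0.70, standard error 0.21, adjusted p = 0.0368). Pop7 fell by 0.79 (adjusted p = 0.0154), from 12.7, 11.2 and 11.2 TPM to 7.68, 6.48 and 5.07 TPM. The subunits Pop1, Rpp30 and Rpp38 had log2 fold changes of 0.17, 0.34 and -0.06 and were not called. None of 6 exonucleases and RNase III genes was called, with 0.50 for Xrn1 and 0.09 for Xrn2, the cytoplasmic and nuclear exonucleases, and 0.38 for Drosha, which crops microRNA precursors (adjusted p = 0.141, 0.764 and 0.110). The pseudogene Gm5693, which KEGG groups with the export cofactors Nxt1 and Nxt2, was at 1.54, 2.06 and 2.33 TPM in the Saline group and 0.27, 0.63 and 0 TPM in the CDDP hearts (-1.21, adjusted p = 0.0182).

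**Figure D2:**
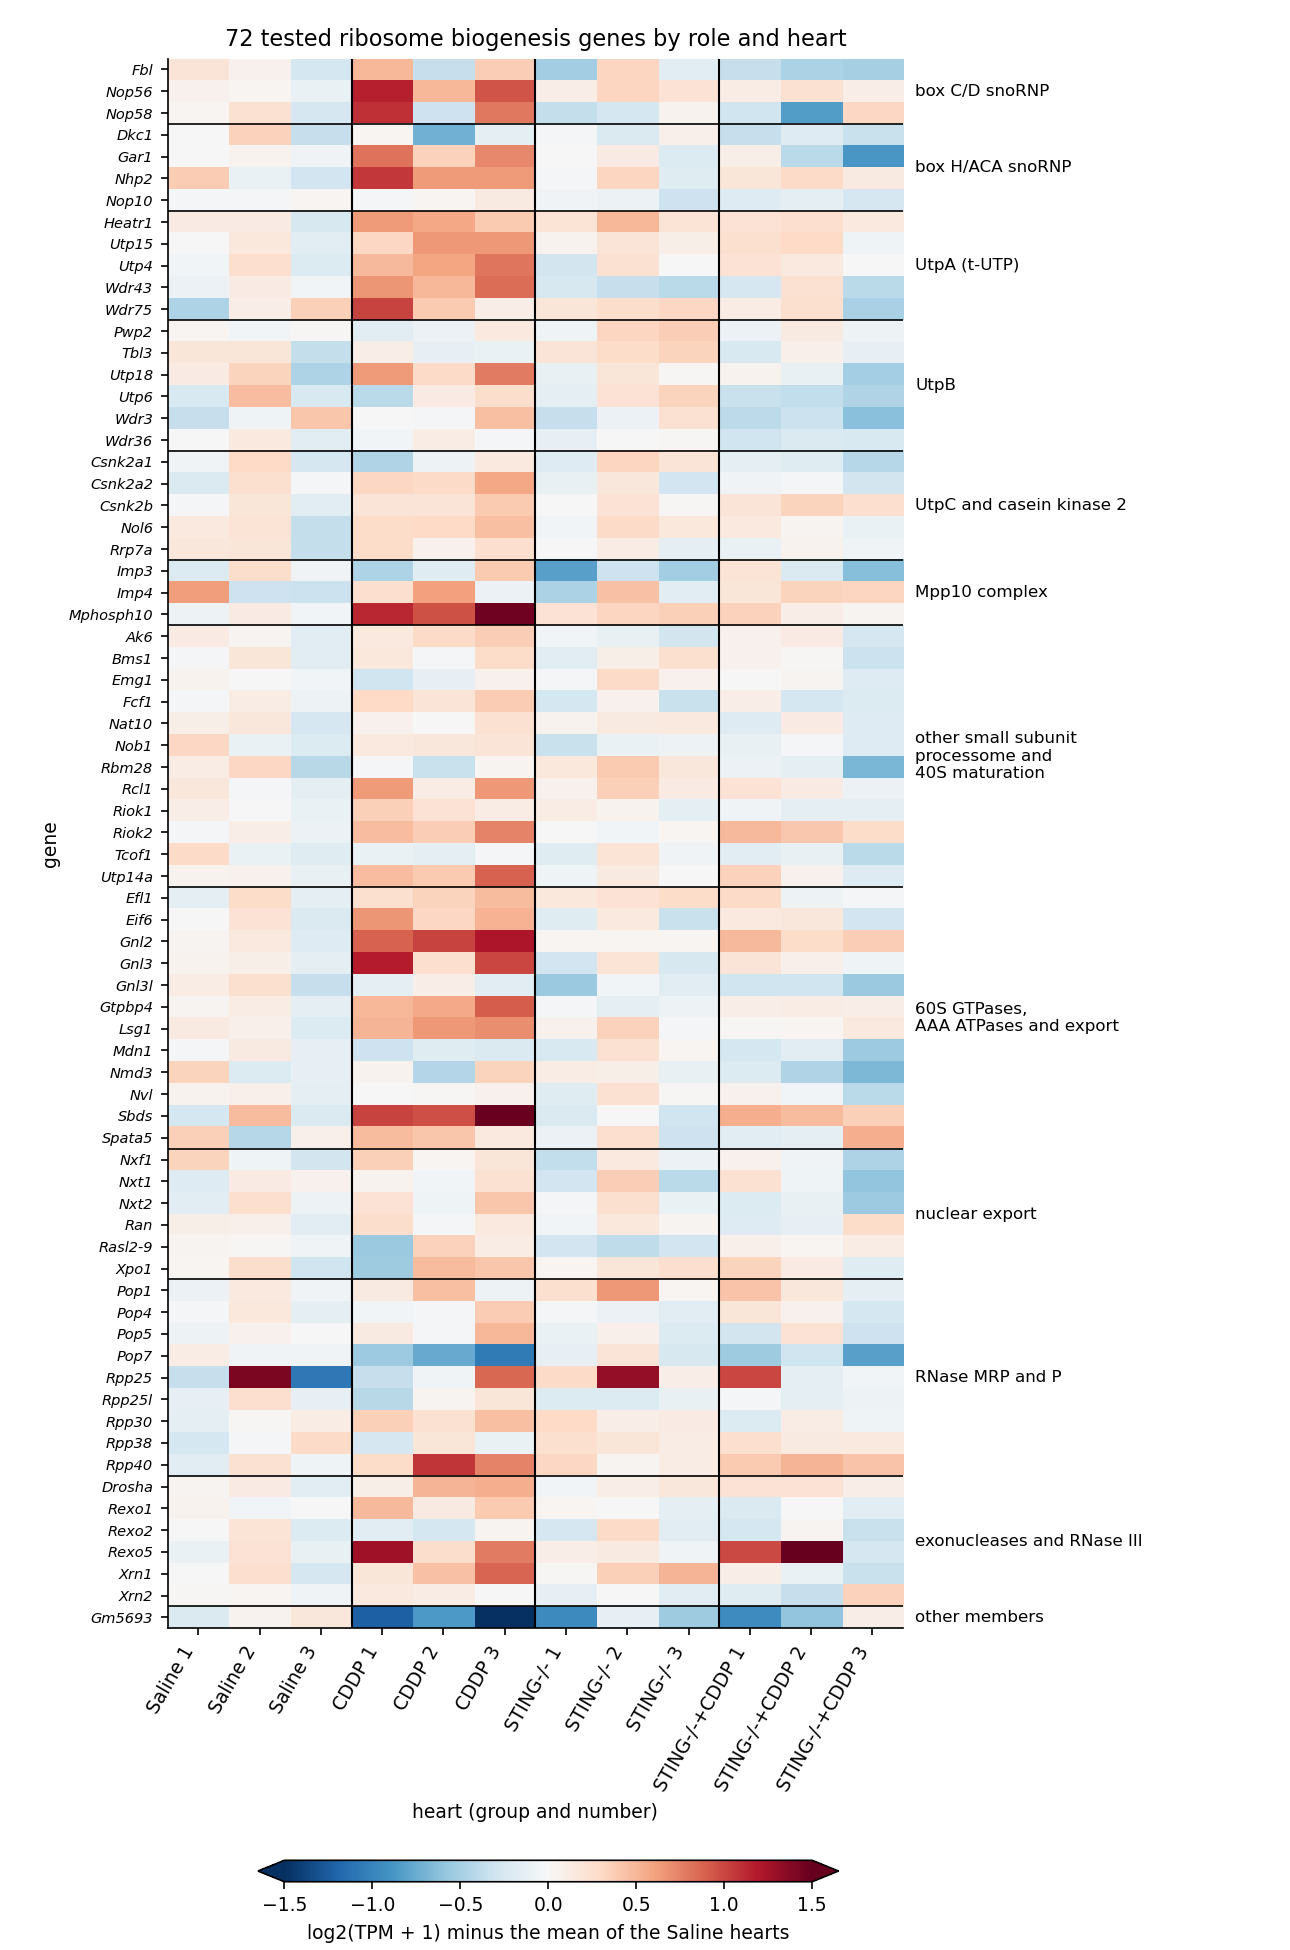
Heat map of the 72 tested ribosome biogenesis genes (rows, grouped by role) in the 12 hearts (columns), coloured by log2(TPM + 1) minus the mean of the 3 Saline hearts; colours stop at 1.5 on either side. Red is dense in the CDDP columns for UtpA, Mphosph10, Nop56, Nhp2 and the large subunit factors Gnl2, Gnl3, Gtpbp4, Lsg1 and Sbds. Most UtpB and nuclear export rows stay pale.

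The second comparison asked how the hearts with cisplatin differed by genotype. In STING-/-+CDDP against CDDP, 2 of the 72 tested members were called lower, 2.78% where 0.854% of all tested genes were called lower, and 0 were called higher, where 0.362% of all were. Mphosph10 was lower by 1.02 on the log2 scale (log2 fold change -1.02, standard error 0.16, adjusted p = 0.0216). Gnl2 fell by 0.66, from 24.7, 27.0 and 31.2 TPM to 18.5, 15.8 and 16.9 TPM (standard error 0.14, adjusted p = 0.0492). Values did not overlap for 32 members that were lower in the STING-/-+CDDP hearts, 44.4% against 15.6% of all tested genes, and for 0 that were higher, against 7.12%. The median was -0.28 beside -0.09 over all tested genes, and 8 of the 72 were above 0, where 39.6% of all tested genes were above 0. With hearts scaled by the median of ratios it was -0.17 beside 0.00, and with quantile normalization -0.16 beside 0.01. At an unadjusted p under 0.05, 26 members differed, 36.1% against 19.8% of all tested genes. The CDDP hearts enter this comparison and the one with the Saline hearts, so a deviation of those 3 hearts appears in both.

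Several members stood just outside the threshold there. Wdr43 had a log2 fold change of -0.81 (adjusted p = 0.0514), Gar1 one of -1.02 (adjusted p = 0.0515) and Nop56 one of -0.72 (adjusted p = 0.0574). Gar1 was at 15.7, 10.9 and 7.6 TPM in the STING-/-+CDDP hearts, all below the CDDP hearts. Sbds, at 69.3, 65.5 and 60.6 TPM, was also below every CDDP heart and above every STING-/- heart (-0.70, standard error 0.20, adjusted p = 0.106). Pop7 was at 7.75, 9.33 and 6.19 TPM and overlapped the CDDP hearts (0.24, standard error 0.19, adjusted p = 0.515). The call of Mphosph10 was lost without the third CDDP heart, the second STING-/-+CDDP heart or the third STING-/-+CDDP heart, and that of Gnl2 was kept in 1 of the 12 fits without 1 heart. The number called ran from 0 without any single one of those 3 hearts to 5, all lower, without the second CDDP heart (6.94% beside 1.86% of all tested genes). It was 6, all lower, with the median of ratios (8.33% beside 2.82%). It was 0 with no filter on low values, with the STING-/-+CDDP and CDDP hearts alone, and with the 2 hearts highest in atrial RNA left out.

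The third comparison took the knockout without cisplatin. In STING-/- against Saline, 0 of the 72 tested members were called by limma, where 0.0724% of all tested genes were, and 0 had an unadjusted p under 0.05, where 3.69% of all had. The median log2 fold change was 0.01. Summed over all members, the level was 1017 ± 101 TPM in the STING-/- hearts and 1024 ± 65.9 TPM in the STING-/-+CDDP hearts (SD, n = 3).

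In STING-/-+CDDP against STING-/-, which shares no heart with CDDP against Saline, 0 of the 72 tested members were called by limma, where 0.934% of all tested genes were. An unadjusted p under 0.05 was found for 6 members, 8.33% against 13.5% of all tested genes, of which Sbds, Gnl2 and Riok2 were higher and Pop7, Utp6 and Rbm28 lower. Sbds was at 40.4, 47.4 and 38.2 TPM in the STING-/- hearts, all below the STING-/-+CDDP hearts (log2 fold change 0.62, standard error 0.20, adjusted p = 0.191). Riok2 went from 9.64, 9.31 and 9.84 TPM to 13.9, 13 and 11.8 TPM, also without overlap (0.39, adjusted p = 0.240). Both were called under 3 alternatives, the 2 scalings between hearts and weights per heart. The median of the members was -0.07 beside -0.11 over all tested genes, and it turned to 0.04 beside -0.01 with the median of ratios and to 0.06 beside 0.02 with quantile normalization. Of the 15 members that had risen with CDDP in wild-type hearts, 11 were above 0 here, beside 35.2% of all tested genes, and 5 did not overlap, against 7.28% of all tested genes without overlap and higher. The median of the 15 was 0.66 in wild-type and 0.16 in STING-/- hearts, and the first value is raised by their choice in those hearts.

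**Figure D3:**
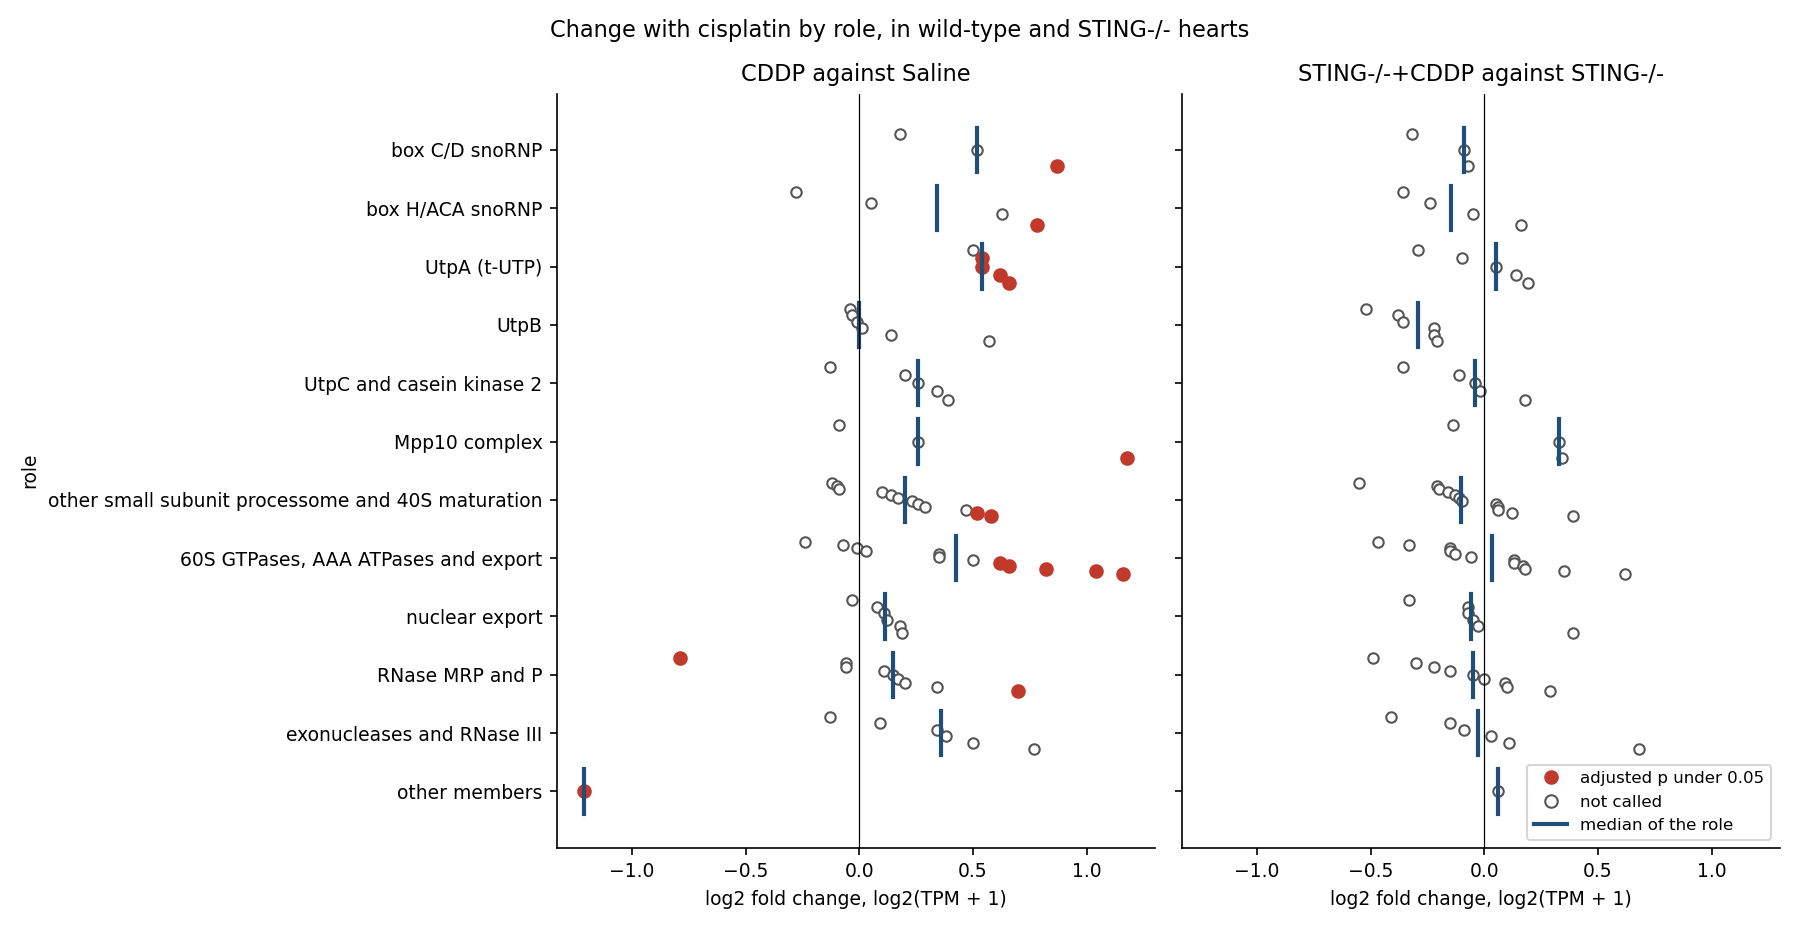
Log2 fold change on log2(TPM + 1) of the 72 tested genes by role, for CDDP against Saline (left) and STING-/-+CDDP against STING-/- (right); each circle is a gene, filled red where called, and the blue bars are the medians of the roles. In wild-type hearts 4 of the 5 UtpA genes and 5 of the 12 large subunit genes are filled and no UtpB gene is; on the right no circle is filled.

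Whether the change with cisplatin differed between genotypes was tested as an interaction. It was called for 0 of the 72 members by limma and for 0.00724% of all tested genes. An unadjusted p under 0.05 was found for 12 members, 16.7% against 11.7% of all tested genes. The interaction is the log2 fold change with cisplatin in STING-/- hearts minus that in wild-type hearts. It was below 0 for 64 of the 72 members and above 0 for 8, or 11.1%, where 40.2% of all tested genes were above 0. Its median was -0.30 beside -0.10 over all tested genes. The CDDP hearts enter the interaction too, so a deviation of those hearts also moves it. Members below 0 included some that changed little in wild-type hearts and were lower with cisplatin in STING-/- hearts, such as Utp6 with -0.01 and -0.52. Mphosph10 had the lowest p-value, with an interaction of -1.32 (standard error 0.23, adjusted p = 0.267). A difference between genotypes in the change with cisplatin was therefore not shown for any single member.

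**Figure D4:**
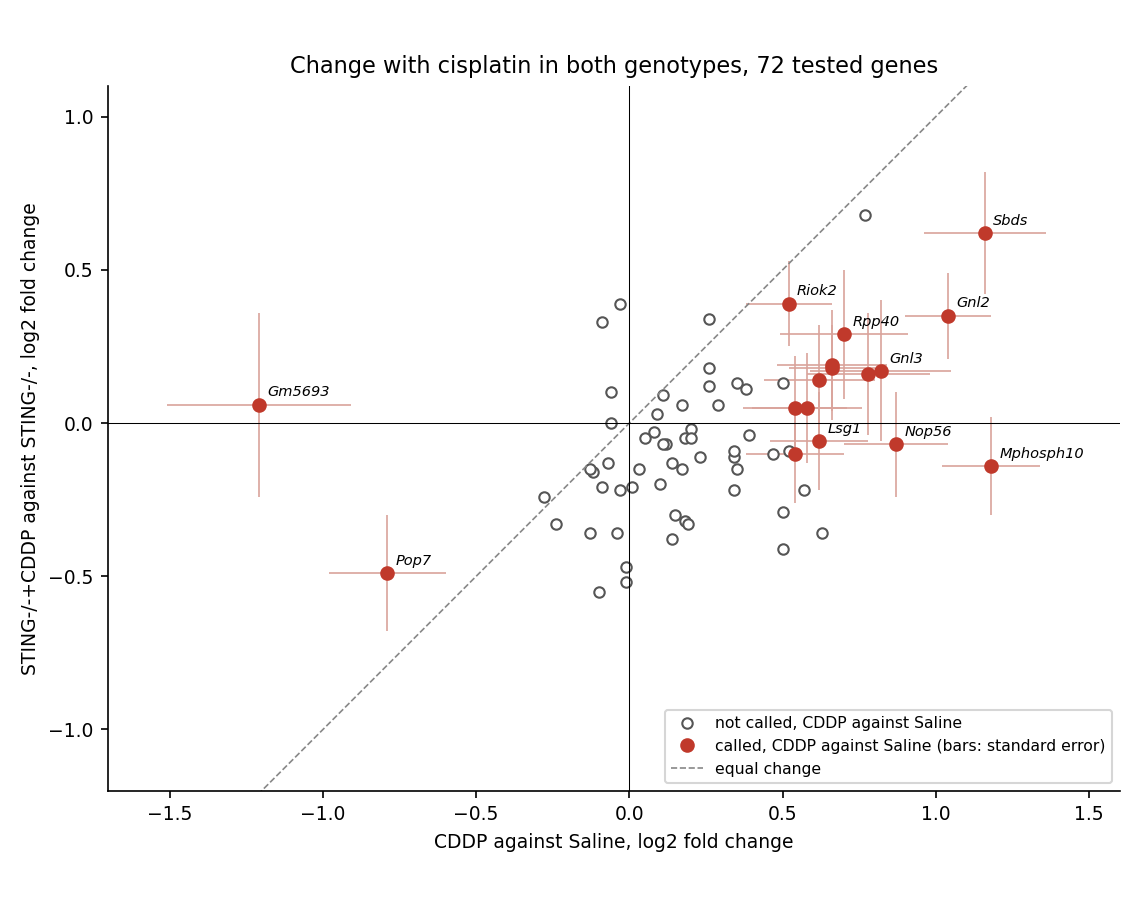
Log2 fold change with cisplatin of the 72 tested genes in wild-type hearts (x axis, CDDP against Saline) and in STING-/- hearts (y axis, STING-/-+CDDP against STING-/-), with standard errors for the 17 genes called in wild-type hearts (red) and the line of equal change; 7 of these are left without a name for lack of room. All 15 risers lie below the line, with Riok2 nearest to it and Mphosph10 farthest. Their choice by a high value on the x axis favours this position, so it does not show a difference between genotypes.

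Other genes of ribosome production were taken from lists outside the KEGG pathway. Of 72 further assembly factors, all tested, 24 were called higher and 0 lower in CDDP against Saline, where 8.52% of all tested genes were called higher and 10.4% lower. Of the 72, 65 were above 0, beside 49.8% of all tested genes, with a median of 0.40 beside 0.00. Npm1, the abundant nucleolar chaperone nucleophosmin, was at 98.8, 135 and 93.5 TPM in the Saline group and 181, 184 and 255 TPM in the CDDP hearts (log2 fold change 0.91, standard error 0.17, adjusted p = 0.00556). Nucleolin (Ncl) rose by 0.98 (adjusted p = 0.00309), from 35.5, 43.0 and 29.4 TPM to 68.8, 60.9 and 85.9 TPM. Both were without overlap. One of these genes was called in STING-/-+CDDP against CDDP, Dcaf13, a processome subunit, which fell by 0.69 (adjusted p = 0.0452), where 0.854% of all tested genes were called lower, and the median was -0.39 beside -0.09.

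Among 21 genes of the RNA polymerase I machinery, 3 were called higher and 1 lower with CDDP, beside 8.52% and 10.4% of all tested genes, and the median was 0.23 beside 0.00. Taf1d, a subunit of the selectivity factor that recruits the polymerase, was at 5.72, 5.11 and 5.59 TPM in the Saline group and 33.6, 12.3 and 29.2 TPM in the CDDP hearts (1.89, standard error 0.32, adjusted p = 0.00298). Taf1d was at 9.76, 5.18 and 5.47 TPM in the STING-/-+CDDP hearts and was called lower than in CDDP hearts (-1.67, adjusted p = 0.0347). Polr1e, a subunit of the polymerase itself, went the other way, from 27.8, 14.3 and 11 TPM to 5.07, 4.06 and 7.5 TPM (-1.45, standard error 0.28, adjusted p = 0.00605). The polymerase's largest subunits Polr1a and Polr1b had log2 fold changes of -0.10 and 0.07 and were not called.

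Of 13 tested genes of the RNA exosome, which trims ribosomal RNA ends, 4 were called higher (Dis3, Exosc1, Exosc2 and Exosc5) and 0 lower, beside 8.52% and 10.4% of all tested genes, with a median of 0.34. Of 7 factors that assemble box C/D particles, Rpap3 and Znhit6 were called higher, by 0.82 and 0.54, with the same background. In the MYC family, 3 of 6 tested genes were called higher, Myc, Mxd1 and Mlxip, beside 8.52% of all tested genes, with a median of 0.64. Myc, a transcription factor known to act on many ribosome biogenesis genes, was at 2.23, 3.46 and 2.35 TPM in the Saline group and 8.10, 5.82 and 7.96 TPM in the CDDP hearts (1.18, standard error 0.22, adjusted p = 0.00497). Its STING-/-+CDDP values, 5.11, 4.98 and 6.66 TPM, overlapped those of the CDDP hearts (-0.33, adjusted p = 0.432). Mxd1, a repressor that shares the partner Max with Myc, rose by 1.15 (adjusted p = 0.0141). Of the 8 genes listed for this family, Mycl and Mycn did not pass the filter. Mycn was at 4.73, 0.88 and 2.23 TPM in the Saline group and 0.37, 0.31 and 0.61 TPM in the CDDP hearts, lower without overlap. No gene of these 3 lists was called between STING-/-+CDDP and CDDP.

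Promoters were found in the RefSeq table for 59 of the 72 tested members, with 66 windows from 250 bases before to 50 after a start. Exact matches on both strands were counted per gene. The E-box CACGTG was present for 12 of the 59 members, 20.3%, and for 8.09% of all genes in the table. The ETS letters CCGGAAG were present for 35.6% of the members and 9.93% of all genes, and the SP1 letters GGGCGG for 67.8% and 38.2%. The NRF1 core GCATGCGC was found for 5.08% and 3.05%, the CRE TGACGTCA for 1.69% and 2.03%, and the YY1 letters AAGATGG for 5.08% and 7.28%. Among the 13 members called higher with CDDP that had a promoter, 15.4% held the E-box, 38.5% the ETS letters and 69.2% the SP1 letters, beside 21.7%, 34.8% and 67.4% of the 46 members not called higher. These are matches of letters in a fixed window, described without a test, and they were counted in all genes of the table, tested or not.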

How the data were processed

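Per the labels and the table, the authors deposited expression as TPM for each gene, with 4 columns of group means that were not used. Their notes name fastp, HISAT, RSEM and the build GRCm38.p5, without versions. The columns summed to between 999999 and 1000001. A linear model with a term for each group was fitted to log2(TPM + 1) of all 12 hearts with limma 3.58.1 in R 4.3.3 (eBayes with a trend, 8 residual degrees of freedom). P-values were two-sided and adjusted by Benjamini and Hochberg's method across 13815 genes, with 0.05 as threshold. For 3 hearts against 3, an exact permutation p can be no smaller than 0.10, and none was computed. The procedure was tested on simulated data in which 200 of 13815 genes had a log2 change of 2, and it recovered 87.5% of these. That change is larger than the one of any called member, so the recovery of changes as small as theirs is not known. Positions and overlaps came from GENCODE M21 (GRCm38), and promoters from RefSeq (GRCm38.p6). Alternatives changed the pseudocount, filter, scaling, variance prior, weights, threshold, replicate block and the hearts included.

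The members and all lists were chosen with earlier results of these data known. Members were named by a rule: in CDDP against Saline up to 8 called members without overlap in each direction, in each other comparison up to 5, a fixed set from each role, and the 3 tested members with the highest and the 3 with the lowest mean TPM. Utp4, Utp14a, Utp15, Utp6, Utp18, Wdr75, Gar1, Efl1, Imp3, Rbm28, Nxt1, Nxt2, Csnk2a2, Nol6, the untested members and the genes outside the pathway were named after their values had been seen.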

Additional observations from a re-analysis of the deposited data

How the results depend on the processing

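Shares in brackets are those of the members called in either direction beside those of all tested genes. In CDDP against Saline, where 17 members were called (23.6% beside 18.9%), a further minimum of 1 on the absolute log2 fold change left 4 (5.56% beside 8.01%), a fit of only the groups compared left 4 (5.56% beside 5.95%), and quantile normalization gave 26 (36.1% beside 28.3%). Leaving out each heart in turn gave 6 to 18 called members. With the second Saline and the third CDDP heart left out together, an alternative chosen after seeing the data, 5 were called (6.94% beside 14.2%). In STING-/-+CDDP against CDDP, where 2 were called (2.78% beside 1.22%), 1 was called (1.39%) with that minimum (beside 0.825%), with a pseudocount of 0.1 (beside 0.934%) and with eBayes without a trend (beside 1.16%). There were 0 calls with no filter on low values (all genes 0.0433%), with only the groups compared (0.275%) and with those 2 hearts left out (0.536%). There were 5 with a minimum of 5 TPM (8.62% beside 2.61%), 4 for TPM without mitochondrially encoded genes (5.56% beside 2.26%), and 6 with the median of ratios (8.33% beside 4.84%) or quantile normalization (8.33% beside 4.86%). Leaving out 1 heart gave 0 to 5. In STING-/-+CDDP against STING-/-, where 0 were called, 2 were called (2.78%) with the median of ratios (beside 1.75%), quantile normalization (beside 2.15%) and arrayWeights (beside 4.44%). The causes of these differences were not tested. In STING-/-+CDDP against STING-/-, the 2 scalings moved the median of all tested genes from -0.11 to -0.01 and 0.02, and that of the members from -0.07 to 0.04 and 0.06. No named gene that was called reversed its direction under any alternative run, and the medians of the members moved by less than the spread between hearts, 0.14, under each.

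With the replicate number as a block, 14 members were called in CDDP against Saline (19.4% beside 15.7%) and 1 in STING-/-+CDDP against CDDP (1.39% beside 0.485%), and the block added no call in the other comparisons. The labels tie no heart of one group to a heart of another, and the deviations of same-numbered hearts from their group means correlated between -0.33 and 0.26 over 18 pairs, so that they share a number but are not paired by it. TPM keep no depth, so no counting error or detection floor could be given, and 3 hearts per group limit the precision (the standard error of a log2 fold change had a median of 0.216).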
